A study of Mus musculus with 11 samples.

Results

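The members described here are 7 genes of myosin-binding proteins, M-band proteins and titin: *Mybpc1*, *Mybpc2*, *Mybph*, *Myom1*, *Myom2*, *Myom3* and *Ttn*. The rule takes them by gene symbol and uses no measured value, although earlier results of these data were known when the set was drawn up, and all 7 were found among the 22384 genes of the count table. The study isolated muscle spindles, the stretch receptors of skeletal muscle, from the deep masseter of mice that carry *Piezo2*-EGFP-IRES-Cre and a *Rosa26*-tdTomato reporter. From each mouse it also took neighbouring extrafusal fibers, the force-producing fibers outside the spindle, as the muscle group. Spindle libraries came from mice 9, 10, 12, 13 and 16 (n = 5), and muscle libraries from these animals plus mouse 11 (n = 6), all of one genotype and untreated. A further spindle sample was left out by the study for its low read yield. The age of these mice is not given in the sources used here. In the spindle the reporter marked intrafusal fibers and capsule cells, while the study did not detect it in the sensory endings. Spindles were picked intact and by hand in bundles, so a spindle library holds RNA of the whole organ with its nerve endings and capsule.

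The thick filament of the sarcomere is a bundle of myosin molecules that is held in place by a small set of accessory proteins. Myosin-binding protein C wraps the filament in its outer zones and tunes how myosin heads reach actin. Skeletal muscle has a slow form (*Mybpc1*), which many fast fibers also use, and a fast form (*Mybpc2*), while *Mybph* encodes a shorter relative. Titin (*Ttn*) spans from the Z-disc to the M-band and acts as spring and ruler, and the myomesins (*Myom1*, *Myom2*, *Myom3*) crosslink titin and myosin in the M-band at the centre of the sarcomere. *Myom1* is found in all striated muscle, *Myom2*, also called M-protein, marks fast fibers, and *Myom3* is used by intermediate and slow fibers. Intrafusal fibers are the small specialised fibers inside the spindle, and the nuclear bag type among them is known from electron microscopy for a faint or missing M line.

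The proximal promoters of the myosin-binding protein genes are shown first, because the 2 members that were called, *Mybpc2* and *Mybph*, are in this family and *Mybpc1* is the form they are set against. Each is 300 bases of the gene's own strand around the annotated start, most of them before it (RefSeq, GRCm38.p6). Capitals mark matches to the E-box, CANNTG, the core bound by myogenic factors, and, in *Mybph*, a match to the TATA box, TATAAA, on either strand. *Mybpc1* lies at chr10:88605103-88605402 (minus strand), *Mybpc2* at chr7:44524620-44524919 (minus strand) and *Mybph* at chr1:134193198-134193497 (plus strand).
Mybpc1: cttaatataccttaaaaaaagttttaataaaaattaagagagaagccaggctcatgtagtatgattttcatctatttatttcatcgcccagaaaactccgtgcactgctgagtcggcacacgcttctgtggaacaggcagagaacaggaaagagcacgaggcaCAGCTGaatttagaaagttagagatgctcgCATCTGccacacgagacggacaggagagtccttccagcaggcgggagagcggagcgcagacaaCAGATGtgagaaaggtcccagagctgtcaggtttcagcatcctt
Mybpc2: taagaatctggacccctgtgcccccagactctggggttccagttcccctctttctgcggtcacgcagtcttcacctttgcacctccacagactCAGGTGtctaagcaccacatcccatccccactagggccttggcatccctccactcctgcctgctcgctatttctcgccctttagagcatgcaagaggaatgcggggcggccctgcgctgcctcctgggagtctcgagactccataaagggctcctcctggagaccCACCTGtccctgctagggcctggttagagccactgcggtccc
Mybph: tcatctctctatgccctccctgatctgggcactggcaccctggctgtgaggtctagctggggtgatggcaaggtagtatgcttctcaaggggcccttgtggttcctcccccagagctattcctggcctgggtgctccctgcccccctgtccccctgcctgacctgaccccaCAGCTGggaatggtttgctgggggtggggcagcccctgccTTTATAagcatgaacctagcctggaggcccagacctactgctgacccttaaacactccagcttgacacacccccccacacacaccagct
The window of *Mybpc1* held 3 E-boxes, that of *Mybpc2* 2 and that of *Mybph* 1. An E-box occurs in 72.3% of all 32851 promoters of this length, so its presence sets none of the 3 apart. The TATA match of *Mybph*, which starts at position -39 and reads on the opposite strand, is a string that 13.6% of promoters hold, and neither *Mybpc1* nor *Mybpc2* had one. Of the 7 members, 6 had a promoter in this source. These are matches of letters and say nothing about binding.

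Libraries held between 8354260 and 23430654 reads, with medians of 14134282 (spindle) and 20259694.5 (muscle). The share of reads from the mitochondrial genome was 22.6% to 38.2% in spindle and 16.7% to 24.8% in muscle. On the first principal component of all genes, spindle 16 (-2.28) and muscle 12 (22.9) lay between the other spindle libraries (-105.3 to -95.0) and the other muscle libraries (72.9 to 80.8). Spindle 10, 12 and 13 held the most odorant receptor reads (2442 to 3941, against 166 to 1300 in the other libraries). Results are also given without these libraries where a call or a pass of the adjusted p changes. Levels are in CPM, a gene's reads scaled to one common depth, after TMM scaling, which sets libraries against each other by genes of middling ratio. Each log2 fold change sets spindle against muscle and has its standard error (SE), from edgeR's quasi-likelihood test across all genes. A gene was called at a mean normalized count of at least 5, an adjusted p of at most 0.05 and an absolute log2 fold change of at least 1.

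The labelled tissues carried their markers. The study proposed some genes of the intrafusal and capsule lists as spindle markers, partly from these samples. The direction of those genes here is not independent evidence. All 10 slow and intrafusal fiber genes (*Tnnt1* the most abundant in spindle) were called higher in spindle, with a summed level of 1457 to 2197 CPM against 41.0 to 68.6 in muscle. Perineurial and capsule genes (6 of 6 called higher, led by *Itgb4*) summed to 314.5 to 484 CPM against 9.68 to 21.6, Schwann cell genes (6 of 6) to 620.5 to 1170 against 93.2 to 329.3, and neuronal genes (4 of 4 analysed, led by *Kif1a*) to 27.5 to 43.5 against 3.71 to 9.54. Endothelial genes (*Cdh5* the most abundant, 0 of 3 called) overlapped, at 243.8 to 459.6 CPM in spindle and 266.3 to 460.6 in muscle. Of the smooth muscle genes 2 of 3 were called higher (led by *Acta2*), and of the satellite and regenerating fiber genes 1 of 4 was called lower (*Myh8*, the perinatal myosin). The 8 pan-fiber genes, which every skeletal fiber uses (*Acta1* the most abundant), summed to 16562 to 30189 CPM in spindle and 41184 to 59977 in muscle, and all 8 passed the adjusted p downward with a median log2 fold change of -0.84. Of 10 fast fiber genes (*Tnnt3* the most abundant), 6 were called lower and 1 was called higher, with a median of -1.09. Of the 6 neuronal genes listed, only 4 were in the count table, which holds genes with at least 5 reads in a sample. In bulk RNA, fewer fibers and less RNA per fiber cannot be told apart, so each member is also given relative to the pan-fiber genes.

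Among the members, *Mybpc2* was called lower and *Mybph* was called higher, and the other 5 were not called. Over all genes, 1.80% were called lower and 11.0% higher. By the adjusted p alone, 4 members were lower (*Mybpc1*, *Mybpc2*, *Myom1* and *Ttn*) and 1 was higher (*Mybph*), beside 15.0% of all genes lower and 23.6% higher. Without spindle 10, 12 and 13, *Mybpc1* (adjusted p = 0.1637 from edgeR) and *Ttn* (adjusted p = 0.07956) no longer passed, at log2 fold changes of -0.41 and -0.87. In 3 members every spindle library lay below every muscle library (*Mybpc2*, *Myom1* and *Ttn*, a pattern of 8.65% of all genes), and in 1 every spindle library lay above (*Mybph*, 9.15% of all genes). The median log2 fold change was -0.77 over the members and 0.29 over all genes. It was -0.36 over the 3653 genes with a mean normalized count of 500 or more, a level that all members but *Mybph* reach.

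**Figure D1:**
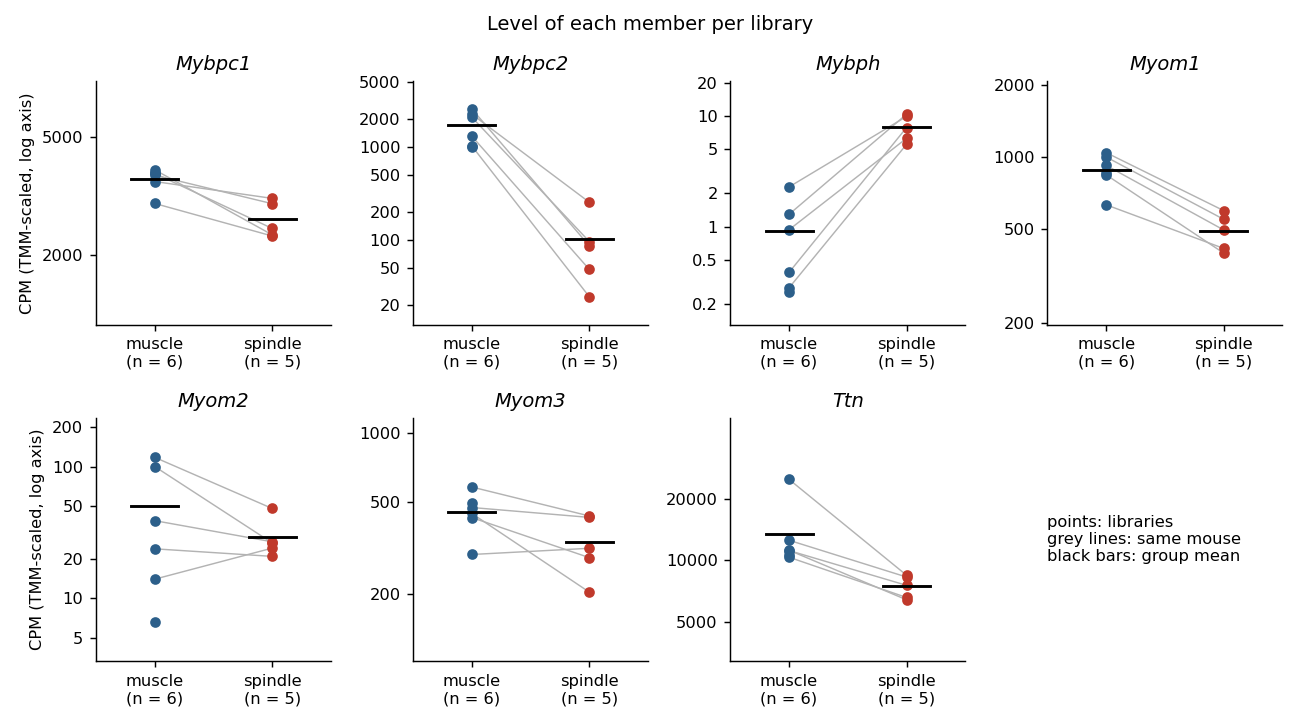
Level of each of the 7 members in CPM (TMM-scaled, log axis) in 6 muscle (blue) and 5 spindle (red) libraries, with grey lines between libraries of one mouse and black bars at the group means. The tissues do not overlap for *Mybpc2*, *Mybph*, *Myom1* and *Ttn*, and the muscle libraries of *Myom2* spread from 6.64 to 118.1 CPM.

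*Mybpc2*, the fast form of myosin-binding protein C (chromosome 7, 44501699 to 44524656, GRCm38), was the member with the steepest fall. It stood at 47.8 CPM in spindle 9, 253.2 in spindle 10, 24.2 in spindle 12, 95.5 in spindle 13 and 85.7 in spindle 16. In muscle it ranged from 1008 to 2568 CPM with a median of 1699. The groups were far apart, with the lowest muscle library well above spindle 10, which was itself the highest of the spindle libraries. The means were 101.3 ± 89.6 CPM (SD, n = 5) and 1709 ± 679.2 CPM (SD, n = 6), a log2 fold change of -4.08 (SE 0.65, adjusted p = 0.001145 from edgeR). Within single mice the spindle level was between 0.0237 (mouse 12) and 0.112 (mouse 10) of the muscle level. *Mybpc2* was called under all 22 alternative settings, with log2 fold changes from -4.75 to -3.28.

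The spread of *Mybpc2* among the spindle libraries was wide, since the highest was 10.4 times the lowest, and a fast myosin was among the genes that varied most alike. Among 10295 well-counted genes (mean normalized count 50 or more), the 3 whose deviations from the tissue means followed those of *Mybpc2* most closely over the 11 libraries were *Ache* (r = 0.904), the acetylcholinesterase of the neuromuscular junction, *Zfp568* (r = 0.879), a zinc finger gene, and *Myh1* (r = 0.862), the myosin heavy chain of fast 2X fibers. *Mybpc2* followed the summed fast fiber genes at r = 0.56 and the summed slow and intrafusal fiber genes at r = 0.62. These values share library and depth and are a description. *Myh1* stood at 136.3 CPM in spindle 9, 842 in spindle 10, 188.7 in spindle 12, 383.6 in spindle 13 and 435 in spindle 16, and between 5881 and 27953 in muscle. Its log2 fold change was -5.16 (adjusted p = 0.0003537 from edgeR). The other myosins in the fast fiber list had log2 fold changes of 3.47 (called higher) and -0.41 (not called). *Mybpc2* amounted to 0.128 to 0.350 of the *Myh1* CPM in spindle and to 0.0919 to 0.222 in muscle. The log2 fold change of *Ache* was 0.12. How much of the *Mybpc2* in the spindle libraries came from extrafusal fibers was not tested.

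**Figure D2:**
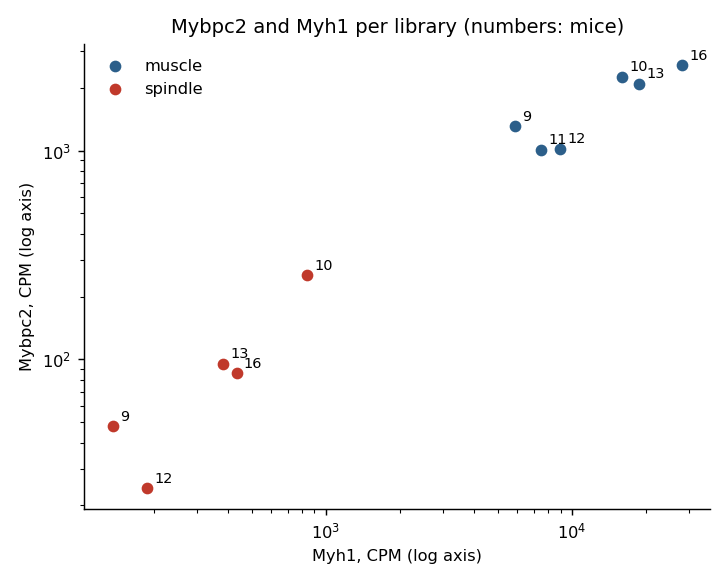
*Mybpc2* against *Myh1* in CPM (both log axes) in muscle (blue) and spindle (red) libraries, numbered by mouse. In spindle, mouse 10 has the highest level of both genes (253.2 and 842 CPM), and the lowest muscle values are 1008 CPM of *Mybpc2* and 5881 CPM of *Myh1*.

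*Mybpc1*, the slow form (chromosome 10, 88518279 to 88605152), differed far less. It stood at 2335 CPM in spindle 9, 2978 in spindle 10, 2314 in spindle 12, 2455 in spindle 13 and 3104 in spindle 16. In muscle it ranged from 2984 to 3882 CPM with a median of 3746. Spindle 16 lay above muscle 12 alone, and in each of the 5 mice the spindle level was lower than the muscle level. The means were 2637 ± 375.4 CPM (SD, n = 5) and 3612 ± 327.4 CPM (SD, n = 6), a log2 fold change of -0.45 (SE 0.13, adjusted p = 0.01334 from edgeR) that missed the minimum fold change. This direction depended on the scaling: with library size alone it was -0.14, with totals that leave out mitochondrial genes 0.01, and relative to the pan-fiber genes *Mybpc1* was higher in spindle by 0.37 (adjusted p = 0.005432 from edgeR).

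The balance of the pair within a library does not depend on scaling. Per kb of exon, *Mybpc1* made up 97.5% of the pair in spindle 9, 90.4% in spindle 10, 98.7% in spindle 12, 95.3% in spindle 13 and 96.7% in spindle 16. In muscle its share ranged from 52.4% (muscle 16) to 74.9% (muscle 11). The tissues did not overlap, with means of 95.7% ± 3.23 (SD, n = 5) and 63.9% ± 9.01 (SD, n = 6), and the share was higher in spindle in 5 of 5 mice. Counted over the longest transcript in place of all exons, the means were 96.3% and 67.0%. The share is a description over these libraries and was given no test of its own.

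*Mybph* (chromosome 1, 134193448 to 134201232), the shorter relative that lacks the front part of myosin-binding protein C, was the only member higher in spindle under TMM scaling. It stood at 5.56 CPM in spindle 9, 10.4 in spindle 10, 6.30 in spindle 12, 9.95 in spindle 13 and 7.89 in spindle 16. In muscle it ranged from 0.257 to 2.28 CPM with a median of 0.659. Every spindle library lay above every muscle library, and muscle 13 was the highest of its group. These levels rest on 50 to 175 reads a library in spindle and on 5 to 47 in muscle. The means were 8.02 ± 2.15 CPM (SD, n = 5) and 0.904 ± 0.791 CPM (SD, n = 6), a log2 fold change of 3.18 (SE 0.45, adjusted p = 9.098e-05 from edgeR). Within mice the ratio ran from 4.36 (mouse 13) to 20.6 (mouse 16), and the call stood under all 22 alternatives (2.88 to 3.97). Even so, *Mybph* was 0.449% to 0.745% of the summed level of the 3 myosin-binding protein genes per kb in spindle, and 0.00978% to 0.0694% in muscle.

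The reads of *Mybph* are uncertain in one respect. *Adora1*, the adenosine A1 receptor, lies on the opposite strand and its exons overlap 49.9% of the exonic bases of *Mybph*. Whether the counting used strand is not given in the sources used here. *Adora1* had 22 to 36 reads a library in spindle and 0 to 10 in muscle, a log2 fold change of 3.16 (SE 0.57, adjusted p = 0.0003027 from edgeR), close to that of *Mybph*. Its level was 1.17 to 2.89 CPM in spindle and 0 to 0.534 in muscle, so that it too did not overlap. Which of the 2 genes gave the reads of the shared part cannot be told apart. The exons of *Mybpc1* and *Mybpc2* overlap other genes over 5.57% and 5.32% of their bases.

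**Figure D3:**
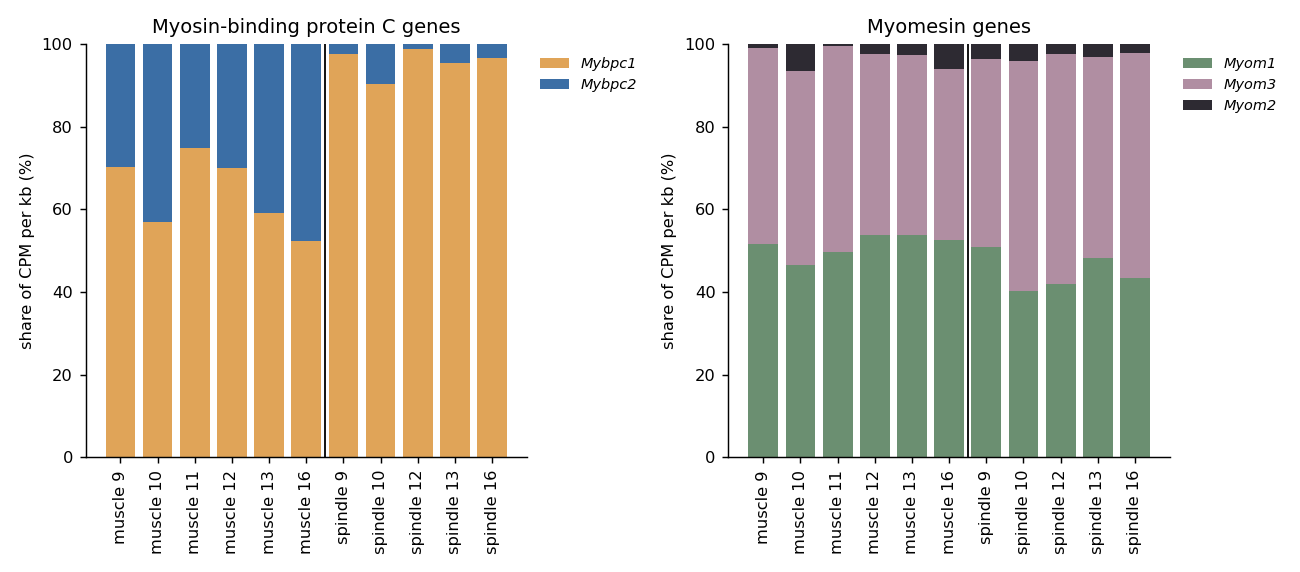
Share of each gene in its family per library, as percent of CPM per kb of exon, for the myosin-binding protein C pair (left) and the myomesins (right), muscle libraries before the vertical line and spindle libraries after it. *Mybpc1* takes 90.4% to 98.7% of its pair in spindle and 52.4% to 74.9% in muscle, while the myomesin shares overlap between the tissues.

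Titin (*Ttn*, chromosome 2, 76703980 to 76982547) had the highest CPM of all members, a scale that grows with gene length, and took 0.692% to 0.995% of all reads in spindle and 0.976% to 1.99% in muscle. It stood at 6420 CPM in spindle 9, 8463 in spindle 10, 6588 in spindle 12, 7551 in spindle 13 and 8291 in spindle 16. In muscle it ranged from 10358 to 24863 CPM with a median of 11187. The groups did not overlap, and muscle 10 stood far above the next library, muscle 16 at 12536 CPM. The means were 7462 ± 941.7 CPM (SD, n = 5) and 13453 ± 5641 CPM (SD, n = 6), a log2 fold change of -0.85 (SE 0.21, adjusted p = 0.00388 from edgeR). Without muscle 10 the muscle mean was 11172 ± 846.4 CPM (SD, n = 5) and the log2 fold change -0.60 (adjusted p = 0.002084 from edgeR). Relative to the pan-fiber genes it was 0.00 (SE 0.16), and with totals that leave out mitochondrial genes it was -0.36 and did not pass (adjusted p = 0.08918 from edgeR). The counts join all titin isoforms, of which the annotation lists 25 transcripts, so a change of splice form would not show here.

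*Myom1* (chromosome 17, 71002633 to 71126856), the myomesin of all striated muscle, differed from muscle by much the same fold as titin when all libraries were used. It stood at 394.5 CPM in spindle 9, 547.1 in spindle 10, 412.7 in spindle 12, 493.5 in spindle 13 and 595.0 in spindle 16. In muscle it ranged from 629.4 (muscle 12) to 1043 CPM with a median of 887.5. Spindle 16 and muscle 12, the libraries that lay between the tissues on the first component, were also the nearest to each other here. The means were 488.6 ± 85.7 CPM (SD, n = 5) and 881.3 ± 146.6 CPM (SD, n = 6), a log2 fold change of -0.85 (SE 0.15, adjusted p = 0.0002885 from edgeR), short of the minimum fold change. Without spindle 16 and muscle 12 it was called, at -1.01 (adjusted p = 2.793e-05 from edgeR). Without muscle 10, where *Ttn* stood far above the other libraries, *Myom1* was at -0.83 and *Ttn* at -0.60. Relative to the pan-fiber genes *Myom1* was at -0.02 (SE 0.11). Per kb of exon, *Myom1* stood at 0.686 to 0.802 of *Ttn* in spindle and 0.449 (muscle 10) to 0.929 in muscle. The means were 0.728 ± 0.0446 (SD, n = 5) and 0.786 ± 0.190 (SD, n = 6). Which of the 2 genes is higher depends on the length used. Over the longest transcript *Myom1* averaged 1.23 times *Ttn* in spindle and 1.33 times in muscle, and only muscle 10 stayed below *Ttn*.

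*Myom3* (chromosome 4, 135759715 to 135815564), the myomesin of intermediate and slow fibers, did not pass the test. It stood at 203.3 CPM in spindle 9, 435.6 in spindle 10, 315.3 in spindle 12, 287.1 in spindle 13 and 429.5 in spindle 16. In muscle it ranged from 296.3 to 582.1 CPM with a median of 460.3. The groups overlapped, and in mouse 12 the spindle level was the higher. The log2 fold change was -0.44 (SE 0.19, adjusted p = 0.07135 from edgeR). Without spindle 16 and muscle 12 it was -0.64 and passed (adjusted p = 0.007697 from edgeR). With the median gene at 0 it was -0.73 and passed (adjusted p = 0.004302 from edgeR). Leaving out spindle 10 (-0.55), spindle 16 (-0.55) or muscle 12 (-0.54) alone also gave a pass. The log2 fold change turned positive relative to the pan-fiber genes (0.38, adjusted p = 0.02275 from edgeR) and with totals that leave out mitochondrial genes (0.03). Among the members, *Myom3* followed the summed pan-fiber genes most closely within tissues (r = 0.94 over 11 libraries, a description). It followed the summed fast fiber genes at r = 0.74 and the summed slow and intrafusal fiber genes at r = 0.01.

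*Myom2* (chromosome 8, 15057653 to 15133541), M-protein of fast fibers, was low and uneven. It stood at 24.1 CPM in spindle 9, 48.3 in spindle 10, 20.9 in spindle 12, 26.9 in spindle 13 and 26.4 in spindle 16. In muscle it ran from 6.64 CPM in muscle 11 to 118.1 in muscle 10 with a median of 31.4. The spindle libraries lay inside the range of the muscle libraries, whose highest was 17.8 times the lowest, against 2.31 times in spindle. The log2 fold change was -0.77 (SE 0.71, adjusted p = 0.414 from edgeR), which did not pass the test. Mouse 10 was the highest of both tissues, while mouse 9 had more *Myom2* in spindle than in muscle. Within tissues *Myom2* followed the summed fast fiber genes at r = 0.34 and the summed slow and intrafusal fiber genes at r = 0.71, a description.

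As a share of the 3 myomesins per kb, the tissues overlapped for each. The *Myom1* share averaged 45.0% ± 4.46 over the spindle libraries and 51.3% ± 2.82 over the muscle libraries, and was lower in spindle in 5 of 5 mice. *Myom3* took 51.9% ± 4.60 and 45.5% ± 3.12, and was higher in spindle in 4 of 5 mice. *Myom2* took 3.15% ± 0.798 and 3.18% ± 2.52. The balance between *Myom1* and *Myom3* depends on the length used, since over the longest transcript *Myom1* took 57.4% in spindle and 63.4% in muscle, but the difference between tissues changed little (-6.38 and -6.06 percentage points).

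Ordered by level per kb of exon, the members ranked differently in the 2 tissues below *Mybpc1*, which came first in both (582.5 ± 82.9 CPM per kb in spindle and 797.9 ± 72.3 in muscle). In spindle it was followed by *Ttn* (63.9 ± 8.06), *Myom3* (55.3 ± 16.4) and *Myom1* (46.7 ± 8.19), neighbours that lay within their spread of each other, then by *Mybpc2* (28.0 ± 24.8), *Mybph* (3.44 ± 0.923) and *Myom2* (3.31 ± 1.23), the last pair again not apart. In muscle *Mybpc2* came second (473.3 ± 188.1), ahead of *Ttn* (115.2 ± 48.3), *Myom1* (84.3 ± 14.0) and *Myom3* (75.1 ± 15.5), which lay within their spread, with *Myom2* (5.69 ± 5.34) and *Mybph* (0.388 ± 0.340) last. Each error is the SD between libraries of a tissue (5 or 6), which does not compare genes within a library. Per kb of exon, *Myom1* stood below *Ttn* in every library of both tissues. The order of *Ttn*, *Myom1* and *Myom3* depends on the length used. Over the longest transcript *Myom1* averaged 1.23 times *Ttn* in spindle and 1.33 times in muscle, ahead of it in both. *Myom3* averaged 0.846 and 0.686 times *Ttn*, and *Mybpc2* 0.379 and 3.91 times. Summed over both forms, myosin-binding protein C stood at 9.53 ± 0.537 times *Ttn* per kb in spindle and 11.8 ± 2.86 times in muscle. The ranges overlapped through muscle 10 alone (6.80). The other muscle libraries (10.63 to 14.78) lay above every spindle library (8.80 to 10.05). Without muscle 10, the difference was -3.33 in place of -2.32.

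The fold changes of the less changed members moved with the scaling, and those of *Mybpc2* and *Mybph* kept their call. Setting the median gene to 0 lowered all values and made *Myom1* (-1.14) and *Ttn* (-1.14) calls as well. Library size alone, which shifted the median of all genes from 0.29 to 0.60, raised them. Relative to the pan-fiber genes, *Mybpc2* was lower by a log2 fold change of -3.28 (SE 0.57), *Mybph* higher by 3.97 (SE 0.45) and *Myom2* at 0.10 (SE 0.66). On that scale the other members ranged from -0.02 (*Myom1*) to 0.38 (*Myom3*).

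**Figure D4:**
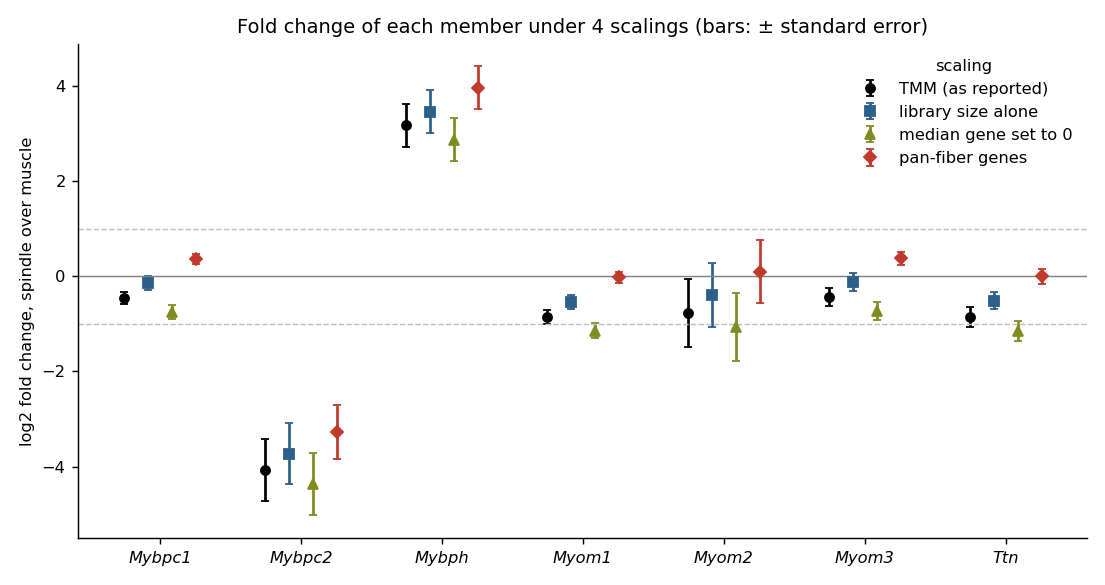
Log2 fold change (spindle over muscle, ± standard error) of each member under TMM, library size alone, the median gene set to 0 and scaling to the pan-fiber genes, with dashed lines at -1 and 1. *Mybpc2* stays between -4.37 and -3.28 and *Mybph* between 2.88 and 3.97, while *Ttn* runs from -1.14 to 0.00 and *Mybpc1* from -0.75 to 0.37.

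Other genes of the titin filament, the M-band and the myosin-binding family were examined as a list of 22. One was called higher (1 of 22) and 4 were called lower, and by the adjusted p alone 2 were higher and 12 lower, with a median log2 fold change of -0.55. Over all genes 11.0% were called higher and 1.80% lower, and 23.6% and 15.0% passed by the adjusted p. *Igfn1*, a protein built of immunoglobulin and fibronectin domains like those of titin, had 686 to 2729 reads a library in spindle and 0 to 16 in muscle, a log2 fold change of 8.77 (SE 0.60, adjusted p = 2.435e-06 from edgeR). It is also in a list of genes higher in spindle that the study drew from these samples, so its direction there is not independent evidence. The 4 lower genes were *Trim54* (-1.15, SE 0.18), *Cmya5* (-1.10, SE 0.14), *Unc45b* (-1.09, SE 0.16) and *Capn3* (-1.03, SE 0.14). In this order they encode a ubiquitin ligase, a scaffold near the Z-disc, a chaperone of myosin and a protease held by titin. Each of these 4 lay in separate ranges in the tissues, at 57.4 to 131.1 CPM in spindle against 162.2 to 256.7 in muscle for *Trim54*. Other annotated genes overlap 26.6% of the exonic bases of *Trim54*, 21.7% of *Cmya5*, 9.04% of *Unc45b* and 7.68% of *Capn3*. None of the 4 was called with library size alone (-0.82 to -0.71), with totals without mitochondrial genes (-0.68 to -0.56) or relative to the pan-fiber genes (-0.34 to -0.20), and the call of *Capn3* also ended with DESeq2, with a low-count filter and without spindle 9 (-0.96 in each), and just missed the minimum fold change with thinning to the smallest library and without spindle 12.

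Past the minimum fold change but not called were *Ankrd2* and *Mybphl*. *Ankrd2*, a stretch-responsive ankyrin repeat protein that binds titin, stood at 57.2 to 137.7 CPM in spindle and 14.5 to 104.1 in muscle, and was higher in spindle in 5 of 5 mice. Its log2 fold change was 1.31 (SE 0.55, adjusted p = 0.08483 from edgeR), and it was called with the mouse as a replicate block (1.45, adjusted p = 0.02828 from edgeR), without muscle 10 (1.81, adjusted p = 0.008867 from edgeR), with DESeq2 (1.36), limma-voom (1.69), library size alone (1.68), totals without mitochondrial genes (1.81) and relative to the pan-fiber genes (2.17). It was not called under the other alternatives (1.02 to 1.46). *Mybphl*, a further relative of *Mybph*, had 1 to 18 reads in spindle and 0 to 3 in muscle, and its mean normalized count of 4.89 was under the minimum. It was called with library size alone (3.23), with totals without mitochondrial genes (3.48) and relative to the pan-fiber genes (3.90). The same held without spindle 12 (3.30), spindle 16 (3.25), muscle 9 (3.15), muscle 10 (2.82) or muscle 12 (2.96), and without spindle 16 and muscle 12 together (3.24). It was not called with DESeq2 (3.25) or limma-voom (1.80), nor without spindle 9 (1.87), which held 18 of its reads.

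**Figure D5:**
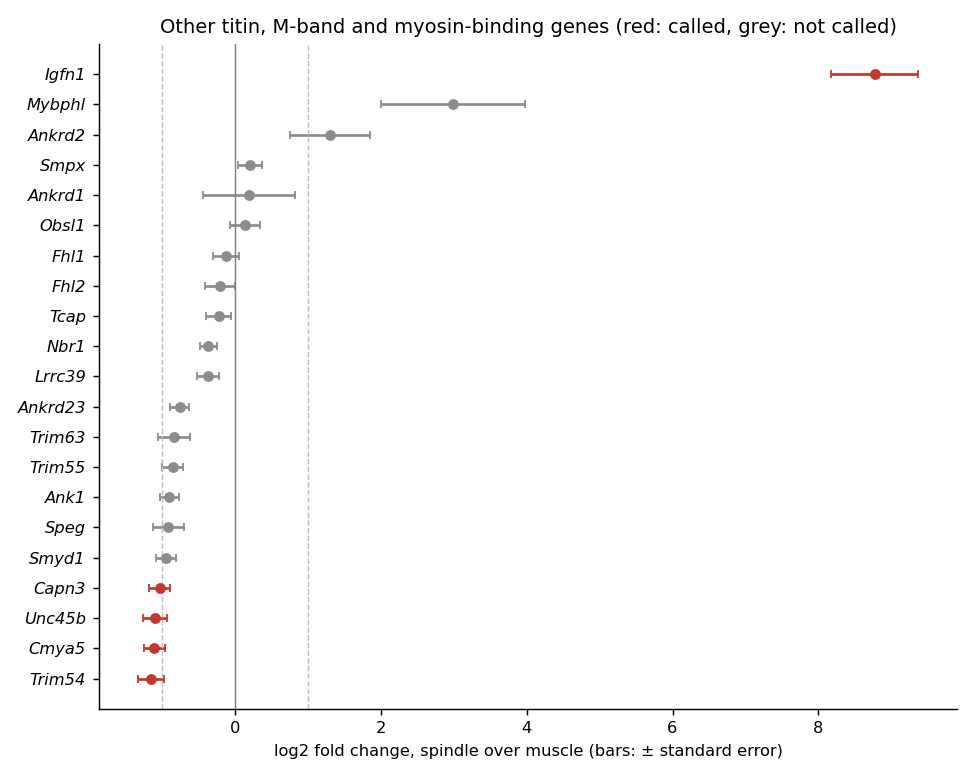
Log2 fold change (spindle over muscle, ± standard error) of 21 of the 22 other titin, M-band and myosin-binding genes, called genes in red and the rest in grey, with dashed lines at -1 and 1. *Igfn1* stands alone at 8.77, and the 4 genes called lower lie between -1.15 and -1.03.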

How the data were processed

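Polyadenylated RNA of 5 spindle and 6 muscle samples was sequenced single-end. The authors aligned reads with STAR 2.4.2a to GRCm38, kept unique alignments and genes with at least 5 reads in a sample, and deposited raw read counts per gene, without pooling samples. The deposited log2 columns are the authors' regularized log values and fold changes, the deposited signal columns their normalized counts and mean, made with DESeq2 1.16.1, and the deposited p-values their own test. None of these was used here.

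Counts of all 22384 genes were tested with edgeR 4.0.16 (TMM, robust quasi-likelihood, Benjamini-Hochberg over all genes) in R 4.3.3. The script was tested on simulated data. Normalized counts are TMM-scaled counts at the geometric mean library size. Alternatives used DESeq2 1.42.0, limma 3.58.1, other scalings (library size, totals without mitochondrial genes, median gene at 0, pan-fiber genes), a low-count filter, thinning, a replicate block and left-out libraries. Levels per kb use the union of GENCODE vM21 exons, an earlier release than the authors'. Log2 CPM values carry a prior count of 2.

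Replicates are separate mice, and both tissues were taken from a mouse, so libraries with the same number in their titles were taken as paired. Over 12557 genes, deviations of the paired libraries from their group means correlated at 0.0831 (mouse 9) to 0.314 (mouse 10). The spindle library of mouse 9 correlated more closely with the muscle library of another mouse. In mice 10, 12, 13 and 16 the closest was the mouse's own.

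The members and lists were chosen with earlier results of these data known. Named genes are the members, partner genes that were called or had an absolute log2 fold change past 1, the 3 genes most correlated with each member among genes averaging 50 or more normalized counts (predicted and mitochondrial genes left out), and the most abundant gene of most marker lists. Some listed genes are not reported here by name.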

Additional observations from a re-analysis of the deposited data

Results flagged for a closer look

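A library that stood far from the rest of its group was looked for in 42 groups of values. These were the CPM of each member and the family shares and ratios, in each tissue. Chance flags about 1 in 20 of separate groups, and 5 were found. The shares and ratios reuse the CPM values, so the 5 are not separate results and cannot be set against that rate. *Ttn* in muscle 10 was 24863 CPM against 10358 to 12536 in the other muscle libraries, and *Mybpc1* per *Ttn* was low there (3.86 against 7.29 to 9.19). Muscle 10 is the smallest muscle library (9690335 reads) and has the highest summed Schwann cell genes of its group (329.3 CPM), and the part of either in the value was not tested. *Myom2* in spindle 10 was 48.3 CPM against 20.9 to 26.9 in the other spindle libraries, and *Myom2* per *Ttn* 0.0753 against 0.0418 to 0.0496. *Mybph* per *Ttn* in muscle 13 was 0.0103 against 0.00122 to 0.00452 in the other muscle libraries, and rests on 47 reads of *Mybph*.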

How the results depend on the processing

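*Mybpc2* and *Mybph* were called under all 22 alternatives, and *Mybpc1*, *Myom2* and *Myom3* under none. With the mouse as a replicate block, the members' calls did not change (*Mybpc2* -4.55, *Mybph* 3.14), 2 partner genes were called higher, and *Myom3* passed the adjusted p (0.02453 from edgeR). Members called lower numbered 3 with the median gene at 0 and 2 without spindle 16 and muscle 12. Of all genes, the counts called higher and lower were 2470 and 403, with 140 lower for library size alone, 1207 lower for the median gene at 0, 4285 higher and 95 lower for totals without mitochondrial genes, 6659 higher and 45 lower relative to pan-fiber genes, and 1576 higher without spindle 10, 12 and 13. Partner genes called higher were 2 with DESeq2, limma-voom and without spindle 16 and muscle 12, 3 with library size alone and with totals without mitochondrial genes, and 4 relative to pan-fiber genes. Those called lower were 0 under these last 3 scalings, 11 with the median gene at 0 and 8 without spindle 16 and muscle 12. Leaving out 1 library at a time gave 1 to 3 partner genes higher (2 without spindle 12, spindle 16, muscle 9 or muscle 12, and 3 without muscle 10) and 3 to 7 lower (7 without spindle 16), with 1 member higher and 1 lower each time. In 182 alternatives, the 14 differences in shares and ratios moved by less than the larger of the SDs of the tissues. That bound is wide, and small differences changed sign within it. Without muscle 10, the myomesins per *Ttn* differed by -0.00197 in place of 0.110. The *Myom2* share of the myomesins then differed by 0.642 percentage points in place of -0.0230. Without muscle 10, *Mybpc1* per *Ttn* differed by 0.802 in place of 1.54. The cause of these shifts was not tested. *Mybph* in muscle rests on as few as 5 reads, which limits its ratio within mice.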

Other observations

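The genes whose levels followed the other members most closely within tissues, over 11 libraries that share depth and composition, are given as a description. For *Mybpc1* they were *Oxsr1* (r = 0.958), *Klhl33* (0.947) and *Unc45b* (0.945), for *Myom1* *Ibtk* (0.965), *Gpd1* (0.964) and *Capn3* (0.956), and for *Myom3* *Trappc9* (0.992), *Ap2a1* (0.984) and *Diaph1* (0.980). *Unc45b* and *Capn3*, genes of myosin folding and of titin, are themselves among those called lower in spindle. For *Myom2* they were *Carhsp1* (0.958), *Lgi4* (0.950), a secreted protein of Schwann cells, and *Agap2* (0.909). For *Ttn* they were *Sept5* (0.945), *Kalrn* (0.936) and *Erc1* (0.934), and for *Mybph* *Avl9* (0.910), *Irs2* (0.908) and *Nr4a3* (0.901).

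Among the members themselves, *Myom1*, *Myom3* and *Mybpc1* varied together within tissues (r = 0.82 to 0.85 for the 3 pairs over 11 libraries), whereas *Mybph* and *Mybpc1* did not (0.04). *Myom2* was nearest to *Ttn* (0.69), and mouse 10 was the highest of the muscle libraries for both.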
